A study of Mus musculus with 13 samples.

Results

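Replication-dependent histone genes encode the linker histone H1 and the core histones H2A, H2B, H3 and H4 that package newly copied DNA. On the array, 56 of 35556 probe sets were listed with a gene of this family, taken by the updated symbols that begin with H1f, H2ac, H2bc, H3c or H4c and a number. Of these, 3 belong to linker genes that are not replication-dependent (H1f7, H1f8 and H1f10) and are kept apart below. The other 53 name 63 histone symbols. They comprise 27 probe sets listed with 1 gene (5 for H1, 4 for H2A, 9 for H2B, 3 for H3 and 6 for H4) and 26 shared by several genes (7 for H2B, 10 for H3, 6 for H4 and 3 of mixed class).

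RNA was measured on 13 biotin-labelled arrays, 1 for each sorted population of an E14.5 mouse fetal liver, from 6 embryos in all. The liver is the site of red cell formation at that age. All embryos carried EpoR-Cre ki/+, in which Cre recombinase is expressed from the erythropoietin receptor locus and so in the erythroid lineage, on a background labelled C57JB6. The knockout embryos (numbers 1, 10 and 11) were Adar1 fl/-, with a floxed and a null allele of the gene for an RNA-editing adenosine deaminase. The controls (numbers 2, 13 and 15) were Adar1 fl/+. The reporter R26EYFP was ki/+ in the 3 controls and in knockout embryo 1, and +/+ in knockout embryos 10 and 11. Cells were sorted by CD71, which is the receptor for transferrin, and by Ter119, a surface antigen of maturing red cells. The less mature Ter119- CD71+ cells came from 3 controls and 3 knockouts. Ter119+ CD71+ cells came from the same 3 controls and from knockout embryos 10 and 11. Ter119+ CD71med cells, with less CD71, came from control embryos 13 and 15.

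Markers were checked against the labels. From Ter119- CD71+ to Ter119+ CD71+ control cells 5 of 8 erythroid genes rose, among them the heme synthesis gene Alas2 by 2.09 log2 units. Of 5 early progenitor genes 2 fell, Kit (-3.05) and Myb (-2.36), and Cd34, Gata2 and Meis1 were not called. Tfrc, the gene of CD71, was not lower in the cells sorted for less CD71 (12.48 against 12.31, not called). Values are log2 signals, so a difference of 1 is a doubling of the signal. Array medians lay between 5.66 and 5.89. Knockout embryos 10 and 11 stood further apart in their Ter119+ CD71+ cells (median absolute difference of 0.242 over probe sets with a listed gene) than the arrays within each group of 3 (0.11 to 0.175). So did the 2 CD71med control arrays, of embryos 13 and 15 (0.2). Since these are bulk samples, fewer cells in a phase of the cell cycle and less RNA per cell cannot be told apart.

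Replication-dependent histone genes lie in clusters and are transcribed mainly during S phase, the phase in which DNA is copied. Their mRNAs have no introns and typically end in a stem-loop bound by the protein SLBP instead of a poly(A) tail, and they are degraded when replication stops. Some members, H1f2 and H2bc4 among them, are also known to give polyadenylated mRNA in differentiating cells. Red cell precursors divide rapidly while they mature, then condense and expel the nucleus. The labelling primer (not given in the sources used here) decides how far signals reflect stem-loop or polyadenylated transcripts.

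In RefSeq's annotation of build GRCm38.p6, 53 of the 63 symbols lie on chromosome 13 and 10 on chromosome 3. Promoter sequences were found for 58 of them. To show how promoters of the 5 classes differ, the 150 bases upstream of the annotated start are printed for the single-gene member of each class with the largest rise between the first 2 control populations among genes with a promoter entry. H2bc4 has no entry. Capitals mark matches on either strand to 3 core motifs, which are TATAAA of many promoters, CCAAT, the motif of the factor NF-Y, and the octamer ATTTGCAT known from H2B promoters.
H1f3 (chr13:23554882-23555031, plus strand): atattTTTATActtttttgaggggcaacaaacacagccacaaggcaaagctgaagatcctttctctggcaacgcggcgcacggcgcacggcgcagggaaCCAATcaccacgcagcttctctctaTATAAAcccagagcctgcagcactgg
H2ac4 (chr13:23750938-23751087, plus strand): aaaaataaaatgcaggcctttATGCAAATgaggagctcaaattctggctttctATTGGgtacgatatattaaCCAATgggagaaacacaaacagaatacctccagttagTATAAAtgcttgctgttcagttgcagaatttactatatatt
H2bc8 (chr13:23571250-23571399, plus strand): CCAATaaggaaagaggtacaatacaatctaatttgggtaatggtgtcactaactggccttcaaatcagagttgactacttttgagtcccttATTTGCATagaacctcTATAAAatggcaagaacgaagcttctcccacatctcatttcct
H3c15 (chr3:96239128-96239277, minus strand): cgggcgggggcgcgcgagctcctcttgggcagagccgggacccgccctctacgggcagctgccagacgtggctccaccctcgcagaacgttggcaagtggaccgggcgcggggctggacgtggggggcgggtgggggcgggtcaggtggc
H4c8 (chr13:23530894-23531043, plus strand): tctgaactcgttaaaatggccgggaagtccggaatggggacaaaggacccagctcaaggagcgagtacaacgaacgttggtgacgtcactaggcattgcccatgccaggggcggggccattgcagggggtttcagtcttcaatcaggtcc

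The H2ac4 and H2bc8 promoters held all 3 motifs, H1f3 held the TATA and CCAAT boxes, and the printed stretches of H3c15 and H4c8 held none. The first base of TATAAA on the coding strand stood 26 bases before the start in H1f3, 41 in H2ac4 and 43 in H2bc8. Motifs were then counted by gene over the 250 bases upstream of the start, where a match in any promoter of a gene counts. The octamer was found for 7 of 14 H2B genes (50%), 6 of 17 H2A genes (35.3%) and 0 of 27 H1, H3 and H4 genes. The share was 1.81% of all 27025 genes in the promoter table. H2A and H2B genes often lie head to head, so the same bases can be counted for both genes of a pair. CCAAT was found for all H1, H2A and H2B genes, for 8 of 10 H3 genes (80%) and for 3 of 11 H4 genes (27.3%), against 37.5% of all genes. TATAAA was found for 28 of the 58 histone genes (48.3%), against 14.3% of all. These are matches of letters, not measured sites.

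Near-identical coding sequences set a limit on which gene a signal can be assigned to. The 10 shared H3 probe sets carry the same list of 12 H3 genes, and their signals correlated at r of at least 0.995 over the 13 arrays, so they act as about the same measurement made repeatedly. The shared H4 list of 11 genes (5 probe sets, r of at least 0.995) and the 2 shared H2B lists (4 and 3 probe sets, r of at least 0.982 and 0.994) were alike in this. The values of 2 pairs of probe sets were identical on every array. Counts are therefore given apart for single-gene and shared probe sets, and signal from a near-identical gene cannot be told apart even where a probe set lists 1 gene.

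The first comparison asks how histone mRNA changes as control cells acquire Ter119. Histone signals of all 5 classes were higher in Ter119+ CD71+ than in Ter119- CD71+ control cells. Of the 53 probe sets, 46 rose and 0 fell (limma with Benjamini-Hochberg adjustment, called at an adjusted p under 0.05, n = 3 each), where 7.08% of all 23410 probe sets tested were called higher. The median difference was 0.75, against 0.04 over all probe sets tested. Of single-gene probe sets 25 of 27 rose, with a median of 1.15, and of shared ones 21 of 26 rose, with a median of 0.72. In 44 of the 53, every Ter119+ CD71+ array lay above every Ter119- CD71+ array, which held for 17.0% of all probe sets. All 27 single-gene probe sets were among the 44. The count rests on moderate as well as large differences, since 17 were called and differed by at least 1.

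**Figure D1:**
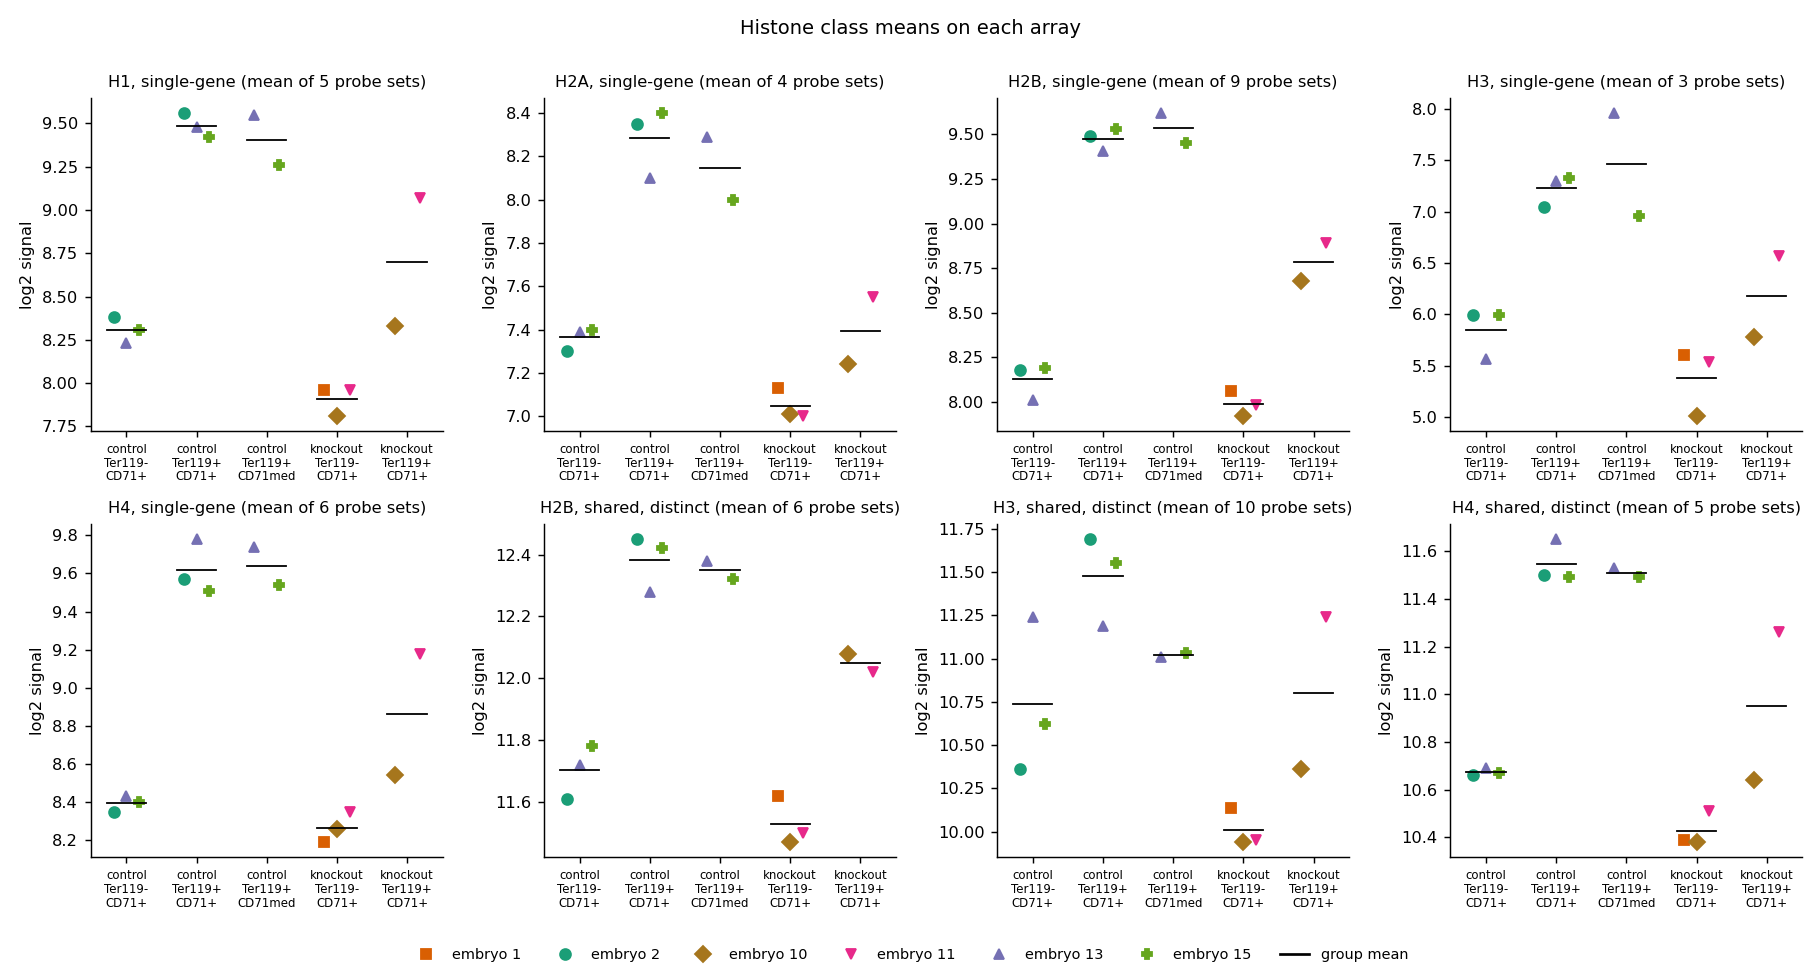
Mean log2 signal of each histone class (y axes, each with its own range) on every array, by genotype and population (x axis), for single-gene and for distinct shared probe sets. Symbols are embryos and lines are group means. Control arrays rise from Ter119- CD71+ to Ter119+ CD71+ cells in every panel, except that embryo 13 does not rise for shared H3 (11.24 and 11.19), and the Ter119+ CD71+ knockout arrays lie below the controls in the single-gene panels.

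Among linker histone genes, which encode the H1 proteins that bind DNA between nucleosomes, 4 of 5 rose. H1f2 was at 9.81, 9.42 and 9.60 in Ter119- CD71+ cells of control embryos 2, 13 and 15, and at 11.54, 11.39 and 11.40 in their Ter119+ CD71+ cells. The arrays of the 2 populations stood well apart, and H1f2 rose by 1.83 (SE 0.18, adjusted p = 2.25e-05). H1f3 was at 6.31, 5.69 and 6.18, then at 8.42, 8.30 and 7.98, again with no overlap. It rose by 2.17 (SE 0.34, adjusted p = 0.000623). H1f5 rose by 0.93 (adjusted p = 0.00277) and H1f1 by 0.68 (adjusted p = 0.00119). H1f6, the linker gene known from testis, differed by 0.28 and missed the threshold (adjusted p = 0.0542). The linker genes kept apart differed by 0.03 (H1f7), 0.12 (H1f10) and 0.29 (H1f8), and 0 of the 3 passed.

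All 4 single-gene H2A probe sets rose. H2ac4 was at 8.30, 8.59 and 8.52 in the Ter119- CD71+ arrays of embryos 2, 13 and 15 and at 9.72, 9.49 and 9.63 in the Ter119+ CD71+ arrays. No array of the first population reached the second, and the rise was 1.15 (SE 0.18, adjusted p = 0.000563). H2ac15 rose by 1.14, and H2ac8, with a low mean signal of 5.2 over all arrays, by 1.0. The smallest H2A rise was that of H2ac1, a histone gene known from testis, at 0.39 (adjusted p = 0.0458). The 2 probe sets shared by most H2A genes, which also list H2ax and H3c4, rose by 0.52 and 0.53.

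All 9 single-gene and all 7 shared H2B probe sets rose. H2bc4 had the largest rise of the 53. Its signal was 7.35, 6.51 and 6.85 in Ter119- CD71+ cells of embryos 2, 13 and 15, and 10.47, 10.32 and 10.66 in Ter119+ CD71+ cells. It rose by 3.58 (SE 0.18, adjusted p = 1.59e-07), where the other 8 single-gene H2B probe sets rose by 0.67 to 1.51. H2bc8, whose promoter is shown above, moved from 9.58, 9.18 and 9.64 to 11.18, 10.63 and 11.12, also without overlap, and rose by 1.51 (SE 0.20, adjusted p = 0.000207). H2bc14 rose by 0.96 (adjusted p = 0.000134) and H2bc3 by 1.25. H2bc1, the H2B gene known from testis, rose by 0.67, which was the smallest of the 9. The shared H2B probe sets rose by 0.61 to 0.79.

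Of the 3 single-gene H3 probe sets, 2 rose. H3c15 was at 7.20, 6.36 and 7.62 in Ter119- CD71+ cells of embryos 2, 13 and 15 and at 9.08, 9.19 and 9.17 in Ter119+ CD71+ cells, with wide spread in the first population only. It rose by 2.09 (SE 0.45, adjusted p = 0.00505). H3c4 rose by 1.42 (adjusted p = 0.00136), and H3c7 differed by 0.62 (adjusted p = 0.0682). The 10 shared H3 probe sets behaved unlike the rest. Their mean was 10.36, 11.24 and 10.62 in Ter119- CD71+ cells of embryos 2, 13 and 15 and 11.69, 11.19 and 11.55 in Ter119+ CD71+ cells. Embryos 2 and 15 thus rose while embryo 13 was about level, and the populations overlapped in 9 of the 10 probe sets. Differences were 0.71 to 0.81, and 5 of 10 were called, at adjusted p of 0.023 to 0.0484. The probe set with the difference of 0.81 was no longer called without the Ter119- CD71+ array of embryo 2 or 15 or the Ter119+ CD71+ array of embryo 2 or 15 (adjusted p = 0.0758 to 0.0947).

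All 6 single-gene and all 6 shared H4 probe sets rose. H4c8 was at 5.85, 5.81 and 5.95 in Ter119- CD71+ cells of embryos 2, 13 and 15 and at 7.19, 7.99 and 7.40 in Ter119+ CD71+ cells. The first population was tight and the second lay wholly above it, with a rise of 1.66 (SE 0.20, adjusted p = 0.000103). H4c9 rose by 1.42, H4c3 by 1.33, H4c6 by 1.32 and H4c14 by 0.88. H4c4 rose by 0.74 (adjusted p = 0.00327). The probe set shared by H4c17 and H4c11 moved from 7.59, 8.14 and 8.14 to 9.22, 9.74 and 9.50 and rose by 1.53 (SE 0.26, adjusted p = 0.000929). The 5 probe sets of the long H4 list rose by 0.66 to 0.75. A probe set listed with H2bc6 and H1f4 rose by 1.39 (adjusted p = 0.000757).

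**Figure D2:**
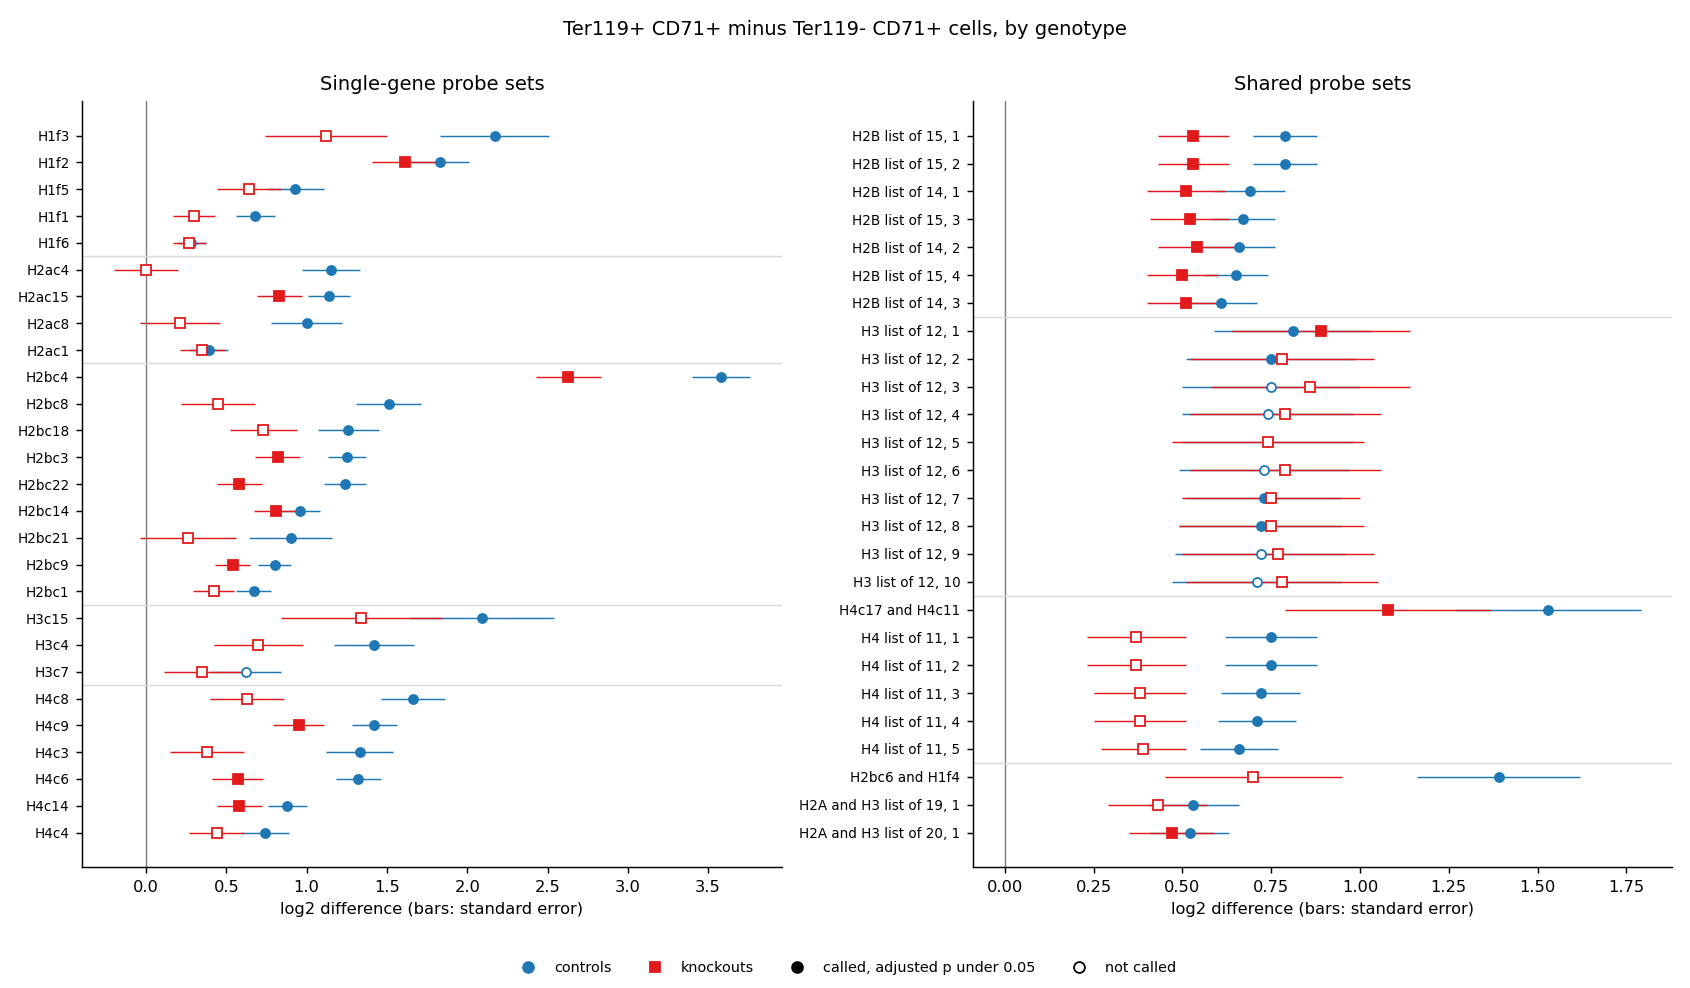
Log2 difference between Ter119+ CD71+ and Ter119- CD71+ cells (x axis) for each of the 53 histone probe sets (rows, by class), in controls and in knockouts. Bars are standard errors, and filled symbols were called by limma. H2bc4 stands furthest right in both genotypes (3.58 and 2.63), and H2ac4 differs by 0.00 in knockouts.

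Other marker lists moved in the same step. Of 8 hepatocyte genes, 6 were called higher in Ter119+ CD71+ control cells, among them Alb by 1.03 and Afp by 1.12, with a list mean of 6.33 to 6.56 on the Ter119- CD71+ arrays and 6.98 to 7.26 on the Ter119+ CD71+ arrays. Of 4 megakaryocyte genes 3 were called higher (list mean 6.05 to 6.34, then 6.82 to 6.96). Their part in the histone differences was not tested. None of 18 neutrophil and myeloid genes was called in that step.

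Genes that mark S phase were set beside the histones, from a list of 26 replication genes. In the step to Ter119+ CD71+ cells 4 of the 26 rose and 0 fell, with a median difference of 0.07. They were Pola1, a subunit of DNA polymerase alpha (0.50), the thymidylate synthase gene Tyms (0.42), Ccna2, which encodes cyclin A2 (0.38), and the ribonucleotide reductase gene Rrm2 (0.37). The list mean was 10.47 to 10.56 on the Ter119- CD71+ control arrays and 10.53 to 10.68 on the Ter119+ CD71+ arrays, which overlapped. The mean of the 27 single-gene histone probe sets was 7.78 to 7.90, then 9.07 to 9.10, with a gap wider than 1 log2 unit.

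Factors that make, process or carry histones were mixed. Of 40 genes for histone transcription and mRNA processing, 4 rose and 12 fell in that step, with a median of -0.19. Those that rose were the transcription factor gene E2f2 (1.87), the uridylyltransferase gene Tut7 (0.65), Zfp473, which encodes a protein of the stem-loop processing complex (0.50), and Slbp (0.34, adjusted p = 0.0264). Those that fell included the cleavage factor gene Cpsf3 (-0.91), Coil, which encodes the Cajal body protein coilin (-0.91), and Lsm11, whose product is part of the U7 particle that cuts histone pre-mRNA (-0.32). Npat, the coactivator of histone genes, was at 9.80 ± 0.29 and 9.87 ± 0.02 (SD, n = 3 each) and was not called. Of 22 histone chaperone genes 2 rose (Rbbp4 by 1.19 and Asf1b by 0.87) and 5 fell. Of 12 histone variant genes 3 rose (H2ax by 1.55, H2az2 by 0.59 and H3f3a by 0.37), and Macroh2a1 fell by 0.74.

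The second comparison follows controls from Ter119+ CD71+ to Ter119+ CD71med cells (n = 3 and 2). Most histone signals showed no called difference there. Of the 53 probe sets 1 rose and 1 fell, against 3.95% called higher and 9.08% called lower of all probe sets tested, and the median difference was -0.03. H2bc4 was at 11.23 and 11.20 in the CD71med cells of embryos 13 and 15, above its 3 Ter119+ CD71+ values of 10.32 to 10.66. It rose by 0.73 (SE 0.20, adjusted p = 0.0340), so H2bc4 was called higher in both successive steps. H1f1 was at 11.48, 11.46 and 11.43 in Ter119+ CD71+ cells and back at 10.91 and 10.88 in CD71med cells, near its Ter119- CD71+ values of 10.62 to 10.86. It fell by 0.56 (SE 0.13, adjusted p = 0.0158). Markers of other cells rose in this step too. They were 4 of 8 hepatocyte genes (list mean 6.98 to 7.26, then 7.83 and 7.65), 2 of 18 neutrophil and myeloid genes (5.09 to 5.28, then 5.67 and 5.75) and 2 of 11 macrophage genes. With the neutrophil and myeloid mean as a covariate neither H2bc4 (adjusted p = 0.058) nor H1f1 (adjusted p = 0.0838) was called. Both CD71med means of that list lay above all Ter119+ CD71+ control means, so list and step cannot be told apart. The call of H2bc4 was also lost without any 1 of 4 arrays, those of embryos 2 and 13 in Ter119+ CD71+ cells (adjusted p = 0.0712 and 0.101) and those of embryos 13 and 15 in CD71med cells (0.0946 and 0.162). That of H1f1 was lost without CD71med embryo 15 (adjusted p = 0.105).

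The 2 CD71med arrays differed from each other for several members. H3c15 was at 9.68 in embryo 13 and 8.60 in embryo 15, H1f3 at 8.98 and 7.75, and the probe set of H2bc6 and H1f4 at 10.62 and 9.93. Embryo 13 was the higher in all of these, and the single-gene mean was 9.25 in embryo 13 and 8.94 in embryo 15. The shared H3 mean was 11.01 and 11.03, and the 10 shared H3 probe sets were 0.43 to 0.50 lower than in Ter119+ CD71+ cells, with 0 of 10 called. In the same step 18 of the 26 S phase genes fell and 0 rose, with a median of -0.67. The largest falls were those of Pole, a subunit of DNA polymerase epsilon (-1.17), the licensing gene Cdt1 (-1.0) and Ccne1, which encodes cyclin E1 (-1.0). The S phase list mean was 9.98 to 10.08 in CD71med cells, below every other array. Npat fell by 0.61 and 7 of 22 chaperone genes fell, Tonsl (-0.98), Mcm2 (-0.90) and Chaf1b (-0.87) the most. Slbp differed by -0.19 (adjusted p = 0.262).

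**Figure D3:**
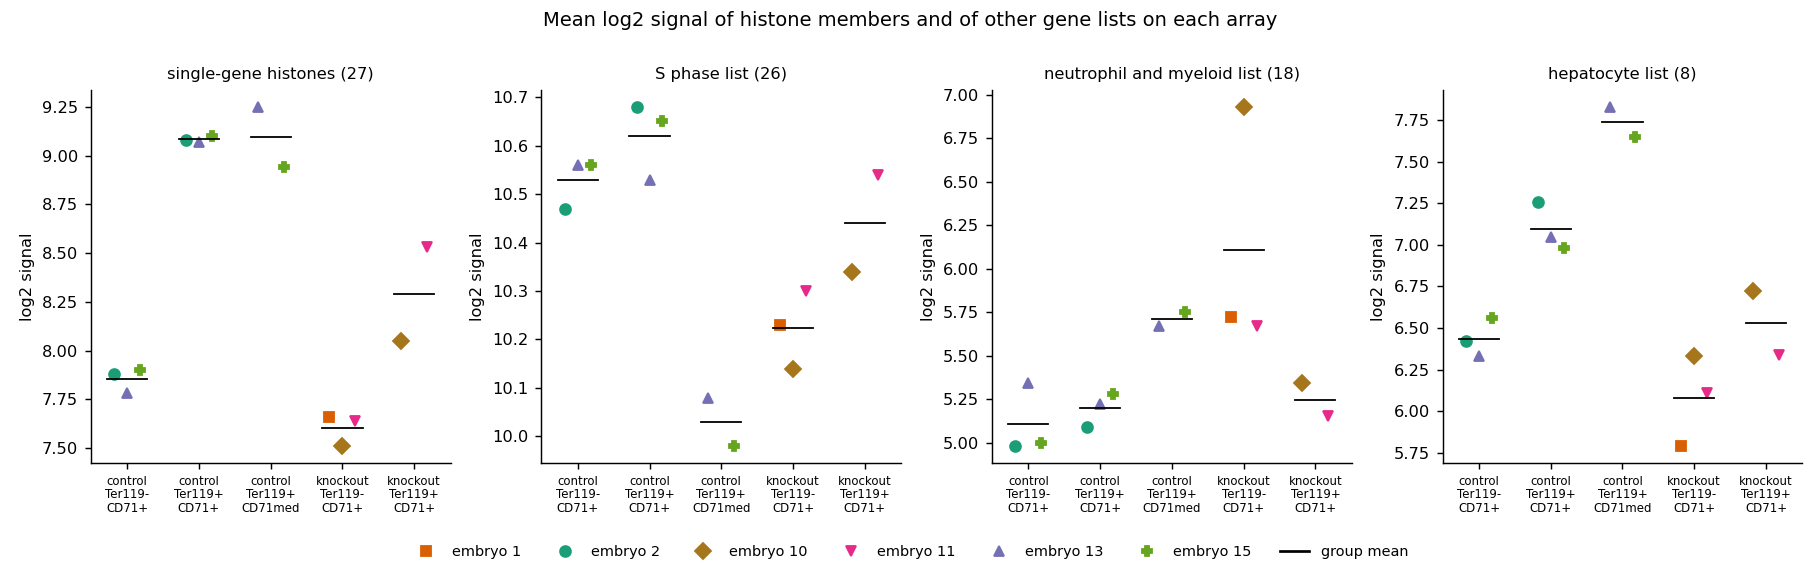
Mean log2 signal (y axes, each with its own range) of the 27 single-gene histone probe sets and of the S phase, neutrophil and myeloid, and hepatocyte lists on every array, by genotype and population (x axis). Symbols are embryos and lines are group means. In CD71med cells the S phase mean is lowest (9.98 and 10.08) while the histone mean (9.25 and 8.94) stays near that of Ter119+ CD71+ controls.

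In knockouts the step from Ter119- CD71+ to Ter119+ CD71+ cells (n = 3 and 2) was also upward. Of the 53 probe sets 20 rose and 0 fell, where 4.09% of all probe sets were called higher, and the median was 0.57. All 7 shared H2B probe sets rose, by 0.50 to 0.54, and so did 5 of 9 single-gene H2B, 3 of 6 single-gene H4, 1 of 5 H1 and 1 of 4 H2A probe sets. H2bc4 was at 7.18, 7.19 and 7.28 in Ter119- CD71+ cells of knockout embryos 1, 10 and 11 and at 9.62 and 10.08 in Ter119+ CD71+ cells of embryos 10 and 11. It rose by 2.63 (SE 0.20, adjusted p = 1.41e-05). H1f2 moved from 8.97, 8.65 and 8.85 to 10 and 10.86 and rose by 1.61 (SE 0.20, adjusted p = 0.000397). H4c9 rose by 0.95, H2ac15 by 0.83, H2bc3 by 0.82 and H2bc14 by 0.81. H2ac4 showed no step, with 8.15, 7.88 and 7.91 in Ter119- CD71+ cells and 7.66 and 8.31 in Ter119+ CD71+ cells, a difference of 0.00 (SE 0.20). Without the Ter119+ CD71+ array of embryo 10 the median was 0.80. Without that of embryo 11 the median was 0.35, and 3 members lay below 0. Either omission leaves a lone array in that group, so no count of calls is given. Of the 53 probe sets 4 were called with the mean of the myeloid list, described below, as a covariate. That mean was higher on every Ter119- CD71+ than on every Ter119+ CD71+ knockout array, so it cannot be told apart from the step. Of all probe sets tested 825 were then called, against 957 higher and 1340 lower without it.

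The effect of genotype was compared first in Ter119- CD71+ cells (n = 3 each). Histone signals lay somewhat lower in knockouts, but few passed the test. Of the 53 probe sets 2 fell and 0 rose, where 0.632% of all probe sets were called lower, 45 had a difference below 0 and the median was -0.23, against 0.00 over all. Without adjustment 22 of the 53 had a p under 0.05 (41.5%), as did 13.9% of all probe sets tested. In 30 of 53 every knockout array lay below every control array, against 11.5% of all probe sets. H1f2 was at 8.97, 8.65 and 8.85 in knockouts and at 9.81, 9.42 and 9.60 in controls. The groups did not overlap, and it fell by 0.79 (SE 0.18, adjusted p = 0.0471). The probe set of H4c17 and H4c11 was at 6.68, 6.40 and 7.06 in knockouts against 7.59, 8.14 and 8.14 in controls. It fell by 1.24 (SE 0.26, adjusted p = 0.0293).

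Neither call held throughout. H1f2 lost its call when any 1 of the 6 arrays was left out (adjusted p = 0.0786 to 0.242), and the pair H4c17 and H4c11 lost it when knockout 1 or 10 or control 13 or 15 was omitted (adjusted p = 0.0967 to 0.164). Some H3 signals had large differences that did not pass, while H3c4 (-0.05) and H3c7 (-0.04) were about level. H3c15 was at 6.05, 4.90 and 6.30 in knockouts against 7.20, 6.36 and 7.62 in controls, a difference of -1.31 (SE 0.45, adjusted p = 0.187). The shared H3 mean was 10.14, 9.94 and 9.95 against 10.36, 11.24 and 10.62. All 3 knockout values lay below all controls, the 10 probe sets differed by -0.68 to -0.76, and 0 of 10 were called. The single-gene H4 probe sets were close to level, at -0.24 (H4c8 and H4c6) to 0.05 (H4c14). H2bc4 was 0.31 higher in knockouts (adjusted p = 0.522).

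Marker lists of several cell types differed in these cells too. Of 18 neutrophil and myeloid genes 3 were called higher in knockout Ter119- CD71+ cells, namely S100a9 (2.74), Mpo (2.44) and Fcnb (1.24), and the list mean was 5.72, 6.93 and 5.67 in knockout embryos 1, 10 and 11 against 4.98 to 5.34 in controls. Embryo 10 was the highest. With that mean as a covariate 0 of the 53 histone probe sets were called. Of all probe sets tested 26 were then called, against 275 higher and 148 lower without the covariate. The median histone difference was -0.13, with 37 of 53 below 0. All 3 knockout list means lay above all controls, so in these cells the covariate moves with genotype and cannot be told apart from it. The part of the myeloid list in the histone values was not tested. The erythroid list mean was 10, 9.79 and 9.89 in knockouts against 10.07 to 10.30 in controls, all knockouts below all controls. Of its 8 genes the membrane protein gene Epb42 fell by 0.62 and the globin gene Hbq1b rose by 0.62. The hepatocyte mean was 5.79, 6.33 and 6.11 against 6.33 to 6.56, with 0 of 8 genes called. The part of both lists in the histone values was not tested. Of the S phase genes 4 of 26 fell (Ccne1 by 0.84, Fen1 by 0.68, Rrm2 by 0.51 and Tyms by 0.41), and the list mean was 10.14 to 10.30 in knockouts, below the 10.47 to 10.56 of controls. The mean of the transcription and processing genes was 8.70 to 8.81 in knockouts against 8.89 to 8.94 (0 of 40 called). That of the chaperone genes was 9.59 to 9.72 against 9.73 to 9.82 (0 of 22 called). The means of the 12 variant genes overlapped.

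In Ter119+ CD71+ cells (n = 2 knockouts and 3 controls) histone probe sets of the H1, H2A, H2B and H4 classes fell in knockouts, and those of H3 had differences below 0 that did not pass. Of the 53 probe sets 17 fell and 0 rose, where 0.927% of all probe sets were called lower. The difference was below 0 in all 53, and it stayed below 0 for each of them under every alternative scaling, covariate and omission that was run. The median was -0.62, against 0.02 over all probe sets tested, and it was -0.35 without knockout embryo 10 and -0.83 without embryo 11. Single-gene probe sets fell in 13 of 27 (median -0.64) and shared ones in 4 of 26 (median -0.45). In 37 of 53 both knockout arrays lay below all 3 control arrays, against 11.2% of all probe sets.

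That count of 17 depended on single embryos. Without a control it was 5 (embryo 15), 8 (embryo 2) or 13 (embryo 13), where 282, 357 and 520 of all probe sets tested were called. The fit of all 13 arrays called 307 higher and 217 lower. Omitting knockout embryo 10 or 11 leaves a lone knockout array, assumed to vary like the others. The median histone difference was then -0.35 or -0.83. Embryo 10 had the lower single-gene mean, 8.05 against 8.53 in embryo 11, and both lay below the controls at 9.07 to 9.10. Both knockouts in this population lacked the R26EYFP allele that all controls carried, so within it genotype and EYFP cannot be told apart. With EYFP as a covariate, estimated from knockout embryo 1 against 10 and 11 in the Ter119- CD71+ cells, 0 of 53 were called. Of all probe sets tested 15 were then called, against 307 higher and 217 lower without the covariate. All 53 histone differences stayed below 0, with a median of -0.47.

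**Figure D4:**
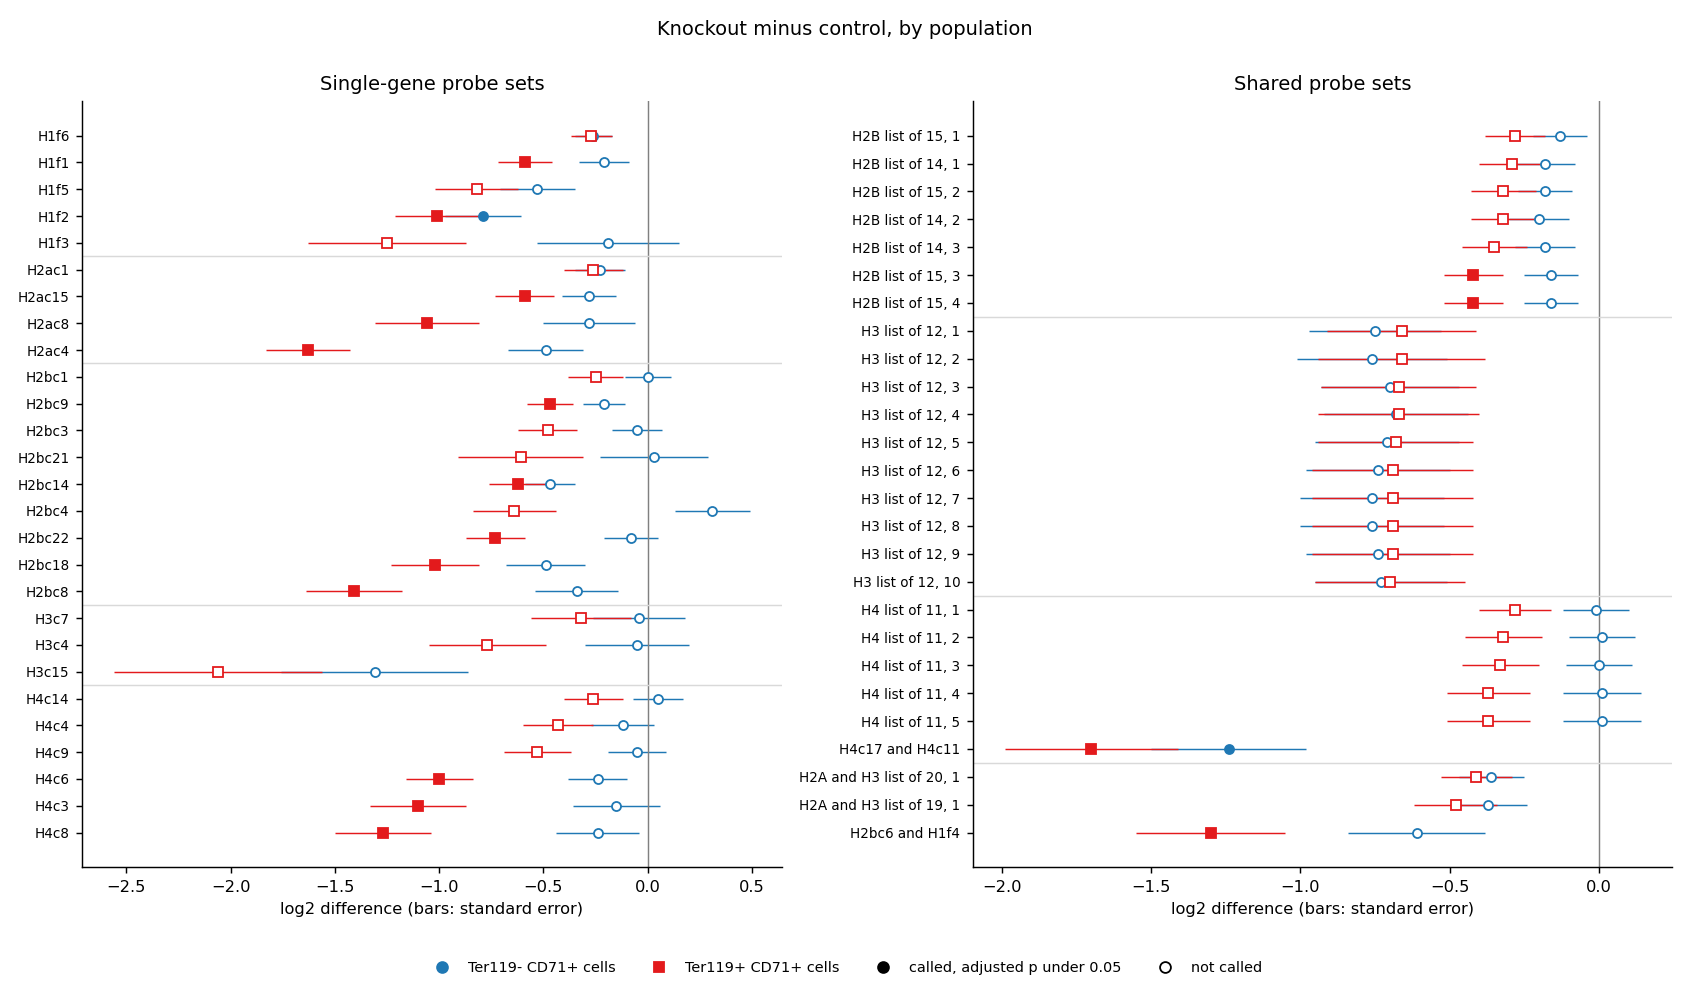
Log2 difference between knockout and control (x axis) for each of the 53 histone probe sets (rows, by class) in Ter119- CD71+ and Ter119+ CD71+ cells. Bars are standard errors, and filled symbols were called by limma. In Ter119+ CD71+ cells every symbol lies left of 0 and 17 are filled, while 2 are filled in Ter119- CD71+ cells.

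The H2A gene H2ac4 had the smallest adjusted p. It was at 7.66 and 8.31 in knockout embryos 10 and 11 and at 9.72, 9.49 and 9.63 in controls 2, 13 and 15. Both knockout values were over 1 log2 unit below the lowest control, and it fell by 1.63 (SE 0.20, adjusted p = 0.000907). Its call was lost only with the EYFP covariate (adjusted p = 0.302) among the 17 alternatives run for it. H2ac8 was at 4.80 and 4.84 against 5.88, 5.49 and 6.28 and fell by 1.06 (adjusted p = 0.0443). Its signal was low, with a mean of 5.2 over all arrays, below the array medians of 5.66 to 5.89. H2ac15 fell by 0.59 (adjusted p = 0.0489), and H2ac1 differed by -0.26 without passing.

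Among H2B genes, H2bc8 was at 9.43 and 9.70 in knockouts against 11.18, 10.63 and 11.12 in controls. It fell by 1.41 (SE 0.23, adjusted p = 0.00655), where it had risen by 1.51 between the control populations. H2bc18 was at 7.27 and 7.90 against 8.24, 8.60 and 8.96, a fall of 1.02 (adjusted p = 0.0268). H2bc14 fell by 0.62, H2bc22 by 0.73 and H2bc9 by 0.47. The gene with the largest control step, H2bc4, was at 9.62 and 10.08 against 10.32 to 10.66, a difference of -0.64 that was not called (adjusted p = 0.161). The 7 shared H2B probe sets were at -0.28 to -0.42, and the 2 called ones, at -0.42 (adjusted p = 0.0406), are a pair with identical values.

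Of the H4 genes, H4c8 was at 5.99 and 6.52 in knockouts against 7.19, 7.99 and 7.40 in controls and fell by 1.27 (SE 0.23, adjusted p = 0.0109). H4c3 was at 8.65 and 9.68 against 10.32, 10.37 and 10.11. The knockouts were more than 1 log2 unit apart, and it fell by 1.10 (SE 0.23, adjusted p = 0.0271). H4c6 fell by 1.0 (adjusted p = 0.00637). The pair H4c17 and H4c11 was at 7.26 and 8.32 against 9.22, 9.74 and 9.50, and fell by 1.70 (SE 0.29, adjusted p = 0.00811). The 5 probe sets of the long H4 list were not called. Their distinct values and the pair together averaged 10.64 in embryo 10 and 11.26 in embryo 11, against 11.49 to 11.65 in controls, so embryo 11 was the nearer to controls.

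In the H1 class, H1f2 was at 10 and 10.86 in knockouts against 11.54, 11.39 and 11.40 in controls and fell by 1.01 (SE 0.20, adjusted p = 0.0204). H1f2 was thus called lower in both populations. H1f1 fell by 0.59 (adjusted p = 0.0372). The probe set of H2bc6 and H1f4 was at 8.45 and 9.27 against 9.94, 10.35 and 10.18 and fell by 1.30 (SE 0.25, adjusted p = 0.0173). H1f3 was at 6.26 and 7.70 against 7.98 to 8.42, a difference of -1.25 with wide spread that did not pass (SE 0.38, adjusted p = 0.136). In the H3 class 0 of 13 probe sets were called, although H3c15 had the largest difference of all, at 6.32 and 7.85 against 9.08, 9.19 and 9.17 (-2.06, SE 0.50, adjusted p = 0.0549). The shared H3 mean was 10.36 and 11.24 against 11.69, 11.19 and 11.55, with embryo 11 inside the control range. The linker genes kept apart differed by -0.06 to 0.16, with 0 of 3 called.

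Without knockout embryo 10, H2ac4 alone of the 17 kept its call (-1.31, adjusted p = 0.0168), and the other 16 were lost (adjusted p = 0.0656 to 0.434). The fall was then 0.59 for H1f2, 0.37 for H1f1, 0.35 for H2ac15 and 0.58 for H4c3. Without control embryo 15 the calls of H1f1, H1f2, H2ac8, H2ac15, H2bc9, H2bc14, H2bc18, H2bc22, H4c3, the H2B list and the pair H2bc6 and H1f4 were lost (adjusted p = 0.0561 to 0.176). Without control embryo 2 those of H1f1, H1f2, H2ac8, H2ac15, H2bc9, H2bc14, H4c3 and the H2B list were lost (adjusted p = 0.0696 to 0.138). Without control embryo 13 those of H1f1, H2bc9, H2bc18 and H4c3 were lost (adjusted p = 0.0577 to 0.0922). Of all probe sets tested 282, 357 and 520 were called without control embryo 15, 2 and 13. With all arrays 307 were called higher and 217 lower. Without knockout embryo 11, which again leaves a lone knockout array, H2ac8 differed by -1.08 and H2bc9 by -0.37.

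**Figure D5:**
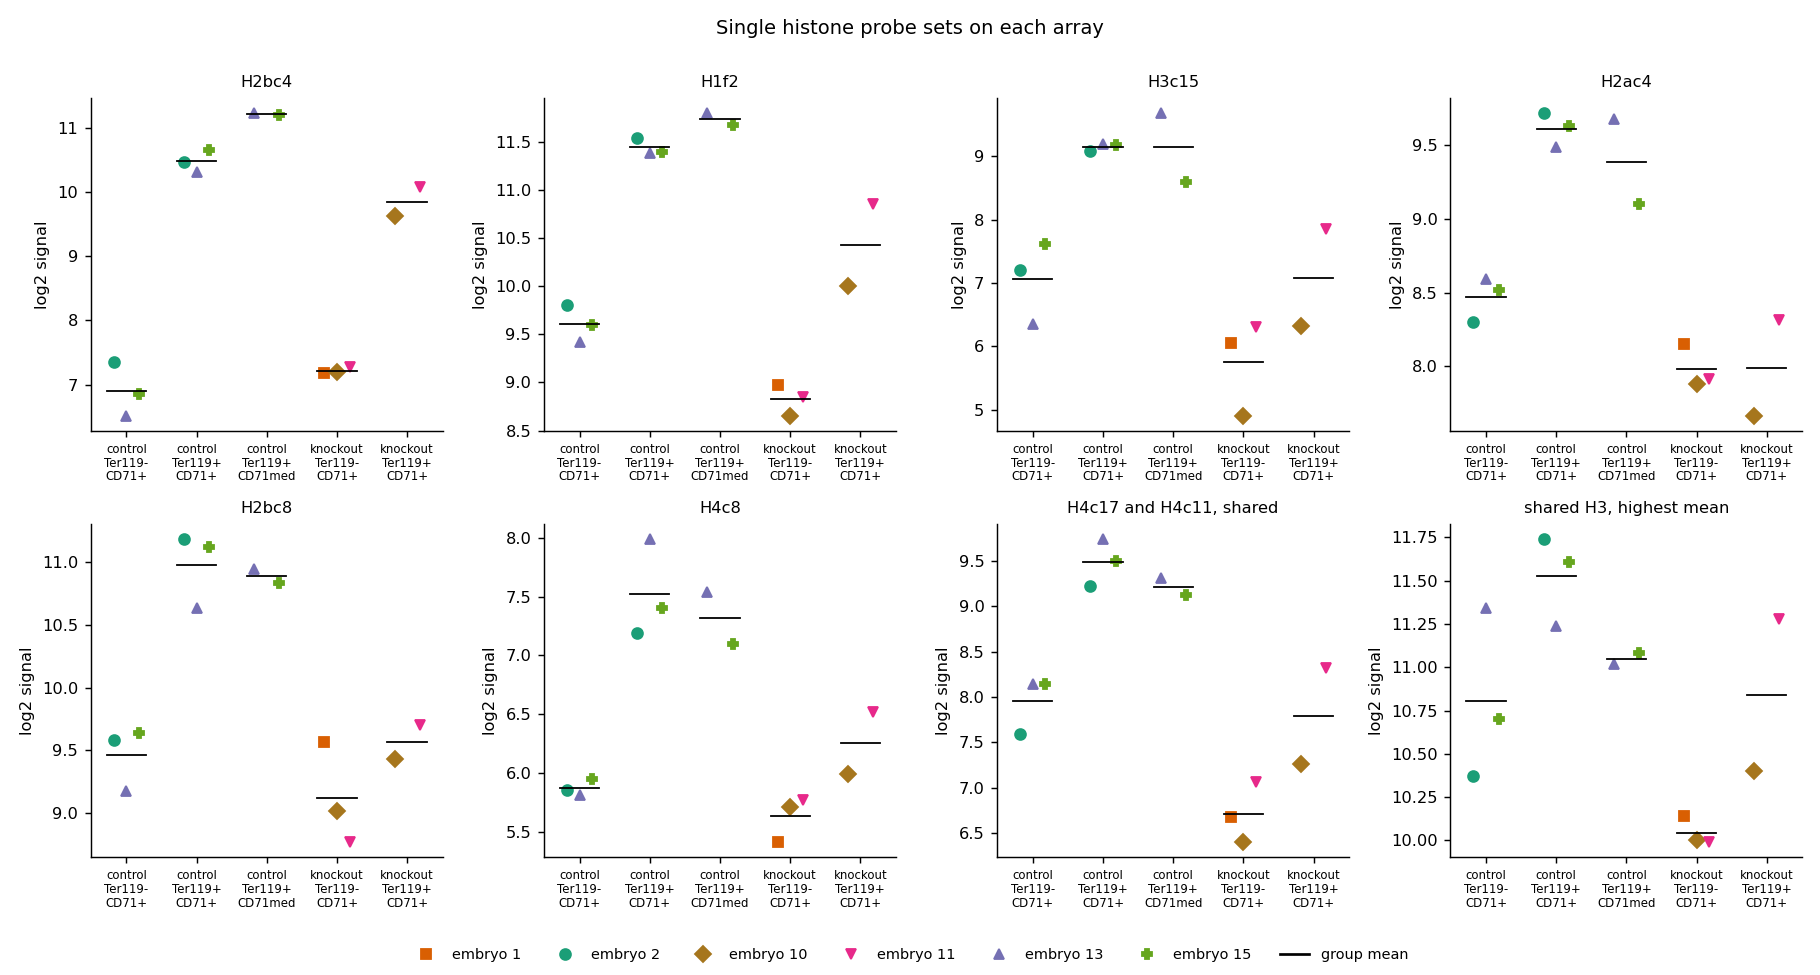
Log2 signal (y axes, each with its own range) of 6 single-gene histone probe sets, of the probe set shared by H4c17 and H4c11 and of a shared H3 probe set on every array, by genotype and population (x axis). Symbols are embryos and lines are group means. H2ac4 lies at 7.66 and 8.31 in Ter119+ CD71+ knockout cells, below the Ter119+ CD71+ control arrays (9.49 to 9.72), while H2bc4 (9.62 and 10.08) lies well above its Ter119- CD71+ arrays in both genotypes.

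Few genes of the other lists were called between genotypes in Ter119+ CD71+ cells, although both knockouts lay below all controls in 4 list means. The erythroid mean was 10.85 and 10.95 against 11.14 to 11.36 (median difference -0.46, 0 of 8 called). The megakaryocyte mean was 6.52 and 6.54 against 6.82 to 6.96 (median -0.41, 0 of 4 called). The hepatocyte mean was 6.72 and 6.34 against 6.98 to 7.26 (median -0.47), with 1 of 8 genes called lower (Apoa1). The macrophage mean was 5.25 and 5.18 against 5.30 to 5.47 (median -0.12, 0 of 11 called). The part of these lists in the histone differences was not tested. Of the S phase genes 0 of 26 were called, the median was -0.20, and the list mean was 10.34 and 10.54 in knockout embryos 10 and 11 against 10.53 to 10.68 in controls. Embryo 10 was again the lower. Of 40 transcription and processing genes 0 were called (median -0.02), and Slbp differed by -0.02. Of 22 chaperone genes 1 fell, Rbbp4, a histone-binding subunit of several chromatin complexes (-0.96, adjusted p = 0.0324). The 12 variant genes had 0 calls. Neutrophil and myeloid means were 5.34 and 5.15, against 5.09 to 5.28 in controls. With that list as a covariate 14 histone probe sets were called, as were 488 of all probe sets tested.

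Whether the genotype effect differed between the 2 populations was tested as an interaction. Of the 53 probe sets 0 were called, as were 0.00854% of all probe sets (2 of 23410), and 10 of the 53 had an unadjusted p under 0.05 (18.9%), against 5.28% of all probe sets. All 27 single-gene differences were below 0, with a median of -0.48 against 0.02 over all probe sets tested. Without the Ter119+ CD71+ array of knockout embryo 10, 22 of 27 were below 0 and their median was -0.27. The lowest p was that of H2ac4, at -1.14 (SE 0.27, unadjusted p = 0.000993, limma's adjusted p = 0.376). H2bc8 was at -1.06 (SE 0.31), H4c8 at -1.03 (SE 0.30) and H2bc4 at -0.95 (SE 0.27). The shared H3 probe sets were at 0.01 to 0.10. This comparison uses the same arrays as the steps and the genotype comparisons, so its values are not separate evidence.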

How the data were processed

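The authors deposited log2 signals, made with RMA according to the submitters' processing notes. RMA subtracts background, sets all arrays to a common distribution and combines the probes of a set, so a change shared by most transcripts would not show. Its version, and the role of the build mm9 that the notes name, are among the details not given in the sources used here. Values ran from 1.62 to 13.5, and precision is limited by the number of arrays.

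Genes were assigned with the platform's table. Of 35556 probe sets, 23410 had a listed gene (21789 with 1, 1621 with several) and were fitted together in limma 3.58.1 (R 4.3.3) with 5 group means over 13 arrays (8 residual and 4.61 prior degrees of freedom). Tests were two-sided, Benjamini-Hochberg adjustment ran over the 23410, and a call needs an adjusted p under 0.05. Counts with a difference of at least 1 add that minimum to the call.

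Named members were, per class, the single-gene probe sets with the highest mean and the largest first control step, and per comparison up to 6 called single-gene and 3 called shared probe sets per direction. Other members named were chosen after their values were seen. Members and lists were chosen with earlier results of these data known. Each array came from 1 mouse per the series' design text, and embryo numbers in the titles link populations. Deviations from group means correlated at -0.25 to 0.33 between arrays of an embryo (9 pairs, 4 above 0.1). Between arrays of other embryos and other groups they correlated at -0.44 to 0.44 (58 pairs, 17 above 0.1). The main fit has no embryo term, and embryo was tried as a block among the alternatives. Alternatives covered scaling, probe sets fitted, variance models, weights, blocks, covariates and omissions. The fit was tested on simulated data. Promoters came from RefSeq's table on GRCm38.p6. Figures were drawn with matplotlib 3.10.9 and tables read with pandas 2.3.3, under Python 3.11.15.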

Additional observations from a re-analysis of the deposited data

How the results depend on the processing

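Counts of called histone probe sets, of 53, were 46 in the first control step, 2 in the second, 20 in the knockout step, 2 and 17 for genotype in Ter119- CD71+ and Ter119+ CD71+ cells, and 0 for the interaction, where every alternative also gave 0. Direction was followed for 48 calls of named probe sets, and 0 of them changed it under any alternative run. Differences that were not called could change sign, as for 3 members in the knockout step without embryo 11. Leaving out 1 array gave 39 to 50 and 0 to 2 in the control steps, 15 to 37 in the knockout step, and 0 to 4 and 1 to 37 for genotype in Ter119- CD71+ and Ter119+ CD71+ cells. Median-centred arrays gave 0 and 11 for genotype in Ter119- CD71+ and Ter119+ CD71+ cells and 1 in the second control step. Of all probe sets 289, 385 and 2704 were then called. Fitting the whole table gave 0, 6 and 1 for the same 3 comparisons, where 147, 392 and 2804 of all probe sets were called. With 1 probe set per gene, which leaves the 27 single-gene members, counts were 25 in the first control step, 11 in the knockout step and 1 for genotype in Ter119- CD71+ cells. Of all probe sets in that fit 3789, 2143 and 441 were called. Only the groups compared gave 13 in the knockout step and 1 for genotype in Ter119+ CD71+ cells, where 1661 and 99 of all probe sets were called. Array weights gave 25 and 2 for genotype in Ter119- CD71+ and Ter119+ CD71+ cells, 1 in the second control step and 10 in the knockout step. With these weights 3531 of all probe sets tested were called for genotype in Ter119- CD71+ cells, against 275 higher and 148 lower in the fit without them. In the other 3 comparisons, in the order given, 123, 2327 and 1014 were called with the weights. The EYFP covariate gave 0 for genotype in both populations, where 39 and 15 of all probe sets tested were called in Ter119- CD71+ and Ter119+ CD71+ cells. The myeloid covariate gave 0 for genotype in Ter119- CD71+ cells, 0 in the second control step and 4 in the knockout step. Of all probe sets tested it called 26, 1546 and 825 in these 3 comparisons. A minimum difference of 1 gave 17 and 0 in the control steps, 3 in the knockout step, and 1 and 9 for genotype. Of all probe sets tested 1224, 538, 705, 161 and 213 met it in the same order. The causes were not tested, except that 1 probe set per gene and a minimum difference lower counts by construction. Counting probe sets with the same gene list once, chosen after seeing the data, leaves 35 probe sets instead of 53. Of these 35, 32, 2, 14, 2, 16 and 0 were called, in the order of the first sentence.

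Embryo as a replicate block changed little. As a random block (correlation 0.00317) it gave 46, 2, 20, 2, 17 and 0 in the same order. As a fixed block, which is possible only between populations of the same embryos, it gave 41, 2 and 18 in the 3 steps and 0 for the interaction.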

Other observations

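Histone genes outside the updated symbols, with older names of the Hist3h or Hist4h series, were measured on 5 further probe sets. In the first control step H2aw rose by 1.19 (limma's adjusted p = 0.000577) on its own probe set and by 0.59 on one shared with Trim17, H4f16 rose by 0.76 (adjusted p = 0.000943) and H2bu2 by 0.47 (adjusted p = 0.0162). In knockout Ter119+ CD71+ cells H4f16 was lower by 0.74 (adjusted p = 0.0167). In knockout Ter119- CD71+ cells the pseudogene H2bu1-ps was lower, at 6.17 against 6.83 (adjusted p = 0.0166).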
